A study of Rattus norvegicus with 34 samples.

Results

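Nuclear receptors are transcription factors that many of the body's small fat-soluble signals act through: steroid and thyroid hormones, retinoic acid, vitamin D, bile acids, oxysterols and fatty acids. Described here are 42 genes of this family in the testis of rats that ate triazole fungicides. They were taken as the probe sets whose only platform gene symbol is one of the 42 names. That gave 71 probe sets for 41 genes, out of 31042 probe sets tested and 14217 genes with a symbol. Nr6a1, the germ cell nuclear factor, has no probe set with a single symbol and therefore no value. Of the 41 genes, 23 had 1 probe set and 18 had several, and each gene is shown by its probe set of highest mean unless a probe set is named. No filter on low values was applied, so all 71 probe sets were tested.

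Most of the family binds DNA as dimers on copies of a short half-site, often with a retinoid X receptor as partner, and recruits coactivators or corepressors according to the ligand. In the testis the receptors are divided among cells: SF-1 (Nr5a1) drives the steroid-making genes of Leydig cells, the retinoic acid receptors act in Sertoli and germ cells, and the orphan receptors TR2 (Nr2c1) and TR4 (Nr2c2) are known from germ cells. Triazoles are made to block the fungal sterol demethylase, and in rodent liver compounds of this class are known activators of the xenobiotic sensors CAR (Nr1i3) and PXR (Nr1i2).

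The animals were male Wistar Han rats exposed through the feed, starting at gestation day 6 and ending at postnatal day 92, when the testis was taken. The exposed groups were M500 and M2000 (myclobutanil at 500 and 2000 ppm, 3 and 5 arrays), P500 and P2500 (propiconazole at 500 and 2500 ppm, 4 and 5 arrays), and T500 and T1800 (triadimefon at 500 and 1800 ppm, 4 and 4 arrays). The Control group ate 0 ppm and had 6 arrays. Every array was made from the RNA of 1 animal, so that p-values measure the spread between animals, treated as independent. Litters are not given in the sources used here. Exposure began before birth, so if animals of a group share a litter, the p-values may be too small. Whole testis was measured, and fewer cells of a type cannot be told apart from less RNA of a gene per cell.

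Values are scores of the deposited table, quantile normalized, on a log-like scale of unknown base with 0 near the middle of an array, and a difference is therefore a number of score units, not a fold. The mean score of 11 spermatid markers was 3.39 to 3.75 per array and that of 7 Leydig cell markers 0.999 to 1.44, so both cell types of the labelled tissue were present on every array. The actin gap, the score of the 3' minus the 5' beta-actin control probe set, widens as the labelled RNA gets shorter and was above 1.4 on 5 arrays. These were M500 replicate 04 (1.6), M2000 replicate 05 (1.47), P2500 replicate 05 (1.47) and Control replicates 02 (1.67) and 06 (1.63). Liver transcripts were high in P2500 replicates 02, 03 and 04, where Alb, the serum albumin of the liver, scored 4.15, 3.89 and 3.91, against -0.124 to 2.29 on the other 28 arrays. In T1800, 3 of 4 animals, and in Control, 3 of 6, carried animal numbers that lie beyond a gap in the numbering. They are called the later series here, and all other animals the earlier one. The labels give the numbers only and name no series, batch or order in time. Where leaving out one of these sets of arrays, or blocking for the animal series, moved a difference of a named receptor by more than 1.5 times, that value is given beside it.

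The first question was how high the receptors stood in testis of unexposed animals. In Control, 17 of the 41 genes lay above the middle of all probe sets, 24 below, 5 above percentile 75 and 10 below percentile 25. The median gene stood at percentile 46. The spiked bioB transcript, added at the lowest concentration of the hybridisation controls, was exceeded by no receptor in every Control array. Over all 31 arrays Nr2c1 exceeded it on 21 and Nr0b1 on 1. These are ranks among probe sets, which differ in how brightly they read, so they describe the array and do not order the genes by transcript number. Taking each gene by its probe set of smallest mean instead put 9 of the 41 above the middle.

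**Figure D1:**
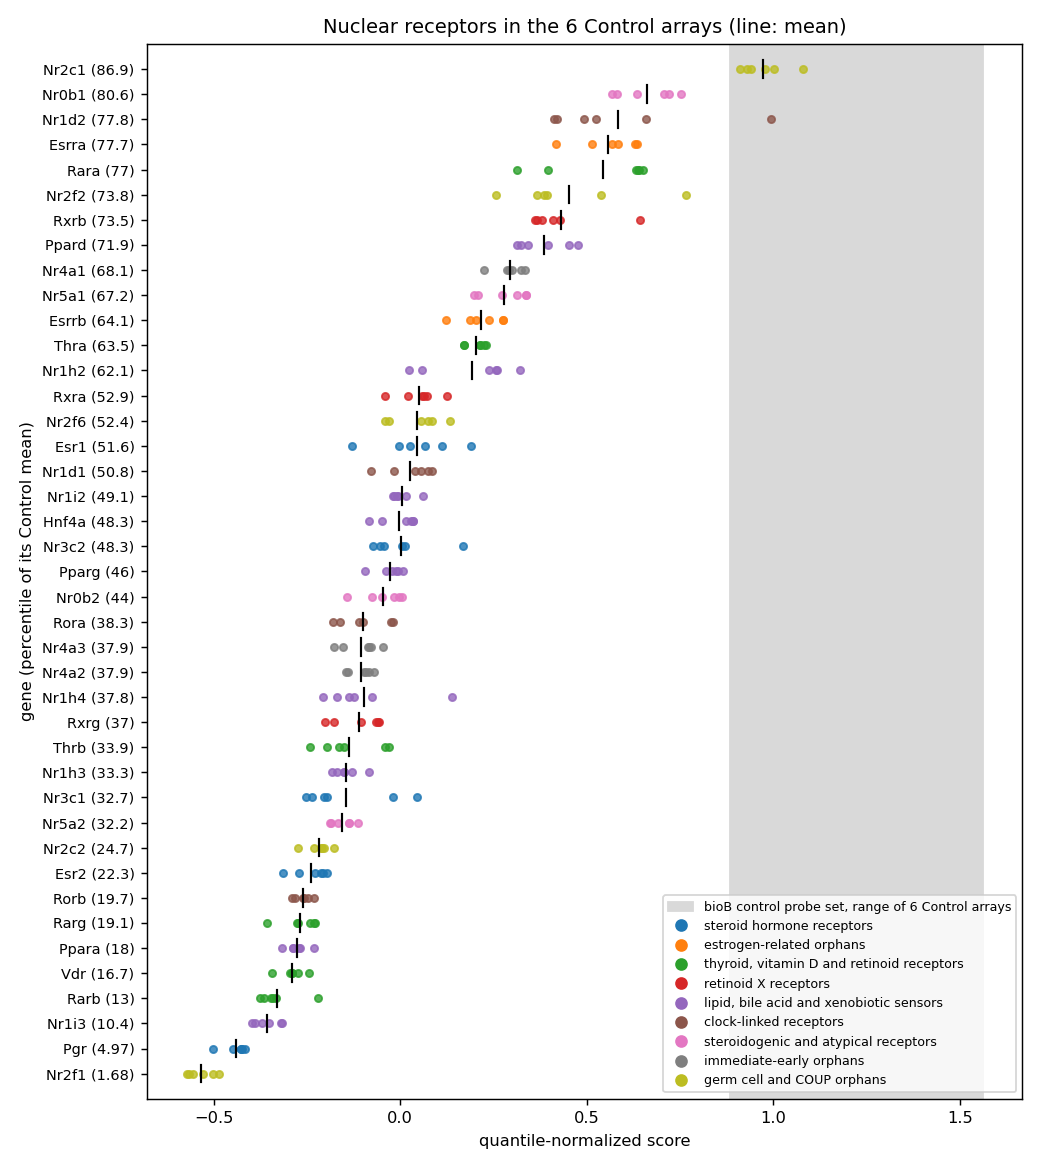
Quantile-normalized score (horizontal axis, score units) of the 41 receptors in each of the 6 Control arrays (points, coloured by class; black line, mean), ordered by the percentile of the Control mean given beside each name. All 6 Nr2c1 points (0.911 to 1.08) and 1 of Nr1d2 (0.993) lie in the grey range of the bioB control probe set over these arrays, and Nr2f1 and Pgr lie lowest.

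The orphan receptors held both ends of the order. Nr2c1 (TR2) stood highest, at 0.911, 0.959 and 1.08 (lowest, median and highest of 6 Control arrays), percentile 86.9. Its other 2 probe sets scored -0.311 and -0.447 on average, so its place rests on 1 probe set. Its relative Nr2c2 (TR4) lay at -0.274, -0.211 and -0.177, percentile 24.7. Of the COUP transcription factors, Nr2f2, known from the interstitial cells of the testis, stood at percentile 73.8, Nr2f6 at percentile 52.4, and Nr2f1 lowest of all 41 genes at -0.572, -0.543 and -0.485, percentile 1.68.

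The steroidogenic regulators came next. Nr0b1 (DAX1), a corepressor that binds SF-1, scored 0.567, 0.671 and 0.753, percentile 80.6. Nr5a1 (SF-1) itself lay at 0.197, 0.294 and 0.338, percentile 67.2, although its other probe set averaged -0.171. Nr5a2 (LRH-1), which can bind the same DNA sites as SF-1, stood at percentile 32.2, and Nr0b2 (SHP), a bile acid-induced corepressor, at percentile 44. Both estrogen-related orphans, which regulate energy metabolism, lay above the middle, Esrra at 0.418, 0.576 and 0.635 (percentile 77.7) and Esrrb at 0.122, 0.22 and 0.276 (percentile 64.1).

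The steroid hormone receptors lay low as a class, with 1 of 5 above the middle and a median at percentile 32.7. Esr1, the estrogen receptor of Leydig and efferent duct cells, scored -0.13, 0.0462 and 0.191, percentile 51.6, and spanned the whole range between Control replicates 02 and 03. Nr3c2, the mineralocorticoid receptor, stood at percentile 48.3 and Nr3c1, the glucocorticoid receptor, at percentile 32.7. Esr2, the beta estrogen receptor, lay at percentile 22.3 and the progesterone receptor Pgr at percentile 4.97, where its arrays read -0.502, -0.426 and -0.416.

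Of the thyroid, vitamin D and retinoid receptors, 2 of 6 lay above the middle. Rara, the retinoic acid receptor whose loss in mice disrupts spermatogenesis, scored 0.312, 0.634 and 0.652, percentile 77. Thra, a thyroid hormone receptor, held a narrow band of 0.171, 0.215 and 0.23 at percentile 63.5. Thrb (percentile 33.9), Rarg (percentile 19.1), Vdr, the vitamin D receptor (percentile 16.7), and Rarb (percentile 13) followed. Of the retinoid X receptors that partner them, Rxrb, whose loss in mice leaves Sertoli cells filled with lipid, stood at percentile 73.5, Rxra at percentile 52.9 and Rxrg at percentile 37.

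The metabolic sensors were led by Ppard, a fatty acid receptor, at 0.313, 0.37 and 0.477 (percentile 71.9), and by the oxysterol receptor Nr1h2 (LXR beta) at 0.0239, 0.247 and 0.32 (percentile 62.1). The other 7 of this class lay below the middle: Nr1i2 (PXR) at percentile 49.1, Hnf4a, the hepatocyte nuclear factor, at percentile 48.3, Pparg at percentile 46, the bile acid receptor Nr1h4 (FXR) at percentile 37.8, Nr1h3 (LXR alpha) at percentile 33.3, Ppara at percentile 18 and Nr1i3 (CAR) at percentile 10.4. Of the sensors through which triazoles are known to act in liver, CAR was thus read by a dim probe set and PXR by one in the middle of the array. Among the clock-linked receptors, Nr1d2 (REV-ERB beta) stood at percentile 77.8, Nr1d1 (REV-ERB alpha) at percentile 50.8, Rora at percentile 38.3 and Rorb at percentile 19.7. The immediate-early orphans, which hormones and stress induce within minutes, were Nr4a1 (NUR77, induced by luteinising hormone in Leydig cells) at percentile 68.1 and Nr4a2 and Nr4a3, both at percentile 37.9.

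Promoter sequence was set beside these ranks for the 37 of 42 genes found by symbol in the RefSeq table of rat promoters (build GRCr8), as the 250 bases before the start of each gene. The receptors had CpG-rich promoters: the observed over expected CpG ratio had a median of 0.684, against 0.406 over all 27457 promoters, and passed 0.6 in 22 of the 37, against 35.4% of all promoters. Among the 36 that also had a score, 12 of the 15 above the middle in Control and 9 of the 21 below it passed 0.6, and the ratio and the percentile correlated at Spearman 0.397 and Pearson 0.366. That is a description across genes, which share the 6 arrays and differ in base composition, and Nr2f1, lowest in rank, had a ratio of 0.722. Over the 37 promoters the ratio ran from 0 (Nr2c2) to 1.21 (Rxra). The 2 promoters below set a CpG-rich one beside a CpG-poor one, Nr2c1 with 24 CpG pairs (ratio 0.904, chr7:30602357-30602606, plus strand) and Hnf4a, the receptor that the liver transcripts bear on below, with 5 (ratio 0.295, chr3:172605970-172606219, plus strand). Capitals mark each CG.
Nr2c1: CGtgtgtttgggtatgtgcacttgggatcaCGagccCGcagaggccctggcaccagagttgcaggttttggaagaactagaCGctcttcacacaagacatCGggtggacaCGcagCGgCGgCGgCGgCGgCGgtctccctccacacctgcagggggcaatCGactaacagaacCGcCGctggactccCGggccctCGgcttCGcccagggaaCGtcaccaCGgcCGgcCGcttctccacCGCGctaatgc
Hnf4a: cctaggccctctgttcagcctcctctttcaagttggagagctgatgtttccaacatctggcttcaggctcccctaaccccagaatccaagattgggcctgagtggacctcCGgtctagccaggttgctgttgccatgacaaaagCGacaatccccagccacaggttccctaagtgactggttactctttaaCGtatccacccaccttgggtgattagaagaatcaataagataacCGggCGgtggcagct

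The half-site AGGTCA, the core that most of the family binds, was searched on both strands and held by 4 of the 37 promoters (10.8%), against 13.7% of all promoters. The longer CAAGGTCA, the extended half-site of the estrogen-related and SF-1 type, which contains AGGTCA, occurred in 0 of 37 against 1.3%. The E-box CACGTG, bound by clock factors, occurred in 3 (8.11% against 5.79%) and the letters TATAAA in 3 (8.11% against 13.1%). The 4 with the half-site were Nr0b1, Nr1d2, Nr5a2 and Rarg. The promoters of the 2 that stood among the 3 highest in Control are shown, with the half-site in capitals: Nr0b1, where it starts 145 bases before the gene (chrX:54707408-54707657, plus strand), and Nr1d2, where it starts 187 bases before it (chr15:9954784-9955033, plus strand). A match of letters is no measured binding site.
Nr0b1: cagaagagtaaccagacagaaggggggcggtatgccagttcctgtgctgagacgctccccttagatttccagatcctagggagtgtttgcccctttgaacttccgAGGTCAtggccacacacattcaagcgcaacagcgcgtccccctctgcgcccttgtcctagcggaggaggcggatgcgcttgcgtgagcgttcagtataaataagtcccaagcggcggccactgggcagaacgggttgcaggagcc
Nr1d2: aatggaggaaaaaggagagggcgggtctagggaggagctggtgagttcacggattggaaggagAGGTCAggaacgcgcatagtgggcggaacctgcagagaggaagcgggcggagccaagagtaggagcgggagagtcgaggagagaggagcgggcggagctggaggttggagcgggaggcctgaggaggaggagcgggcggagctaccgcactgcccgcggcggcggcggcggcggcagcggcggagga

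Before the exposed groups are compared, the spread inside Control has to be seen, because it was wide for some receptors. Control replicates 02 and 06, with actin gaps of 1.67 and 1.63, did not overlap the other 4 Control arrays in 29 of the 71 receptor probe sets (40.8%), where 49.7% of all probe sets did not overlap. Of the receptor probe sets 8 lay above and 21 below (24.2% and 25.5% of all). Nr1d2 scored 0.658 and 0.993 in this pair, against 0.411 to 0.524 in the other 4. Rara scored 0.396 and 0.312, against 0.631 to 0.652. Esr1 scored -0.13 and -0.00261, against 0.0264 to 0.191. The pair thus sat above for Nr1d2 and below for Rara and Esr1. Nr2f2, Nr0b1, Thrb and Nr3c1 were also above in the pair, and Esrra, Nr1h2, Rxra, Rxrg, Thra and Hnf4a among those below.

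The same held across groups for 2 receptors. Nr2f2 measured 0.813 in M500 replicate 04, 0.759 in M2000 replicate 05, 0.77 in P2500 replicate 05 and 0.767 and 0.539 in Control replicates 02 and 06, against 0.257 to 0.472 on the other 26 arrays. Another Nr2f2 probe set (1395863_at) was also higher on all 5 arrays, from -0.12 to 0.0896, against -0.244 to -0.126. Nr1h2 was lower on all 5, from -0.186 to 0.0587, against 0.0956 to 0.402. These were 3 of 71 receptor probe sets (4.23%) that separated the 5 arrays from the other 26, where 8.91% of all probe sets did so. The part of RNA quality in these values was not tested, and the 5 arrays lie in 4 groups.

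**Figure D2:**
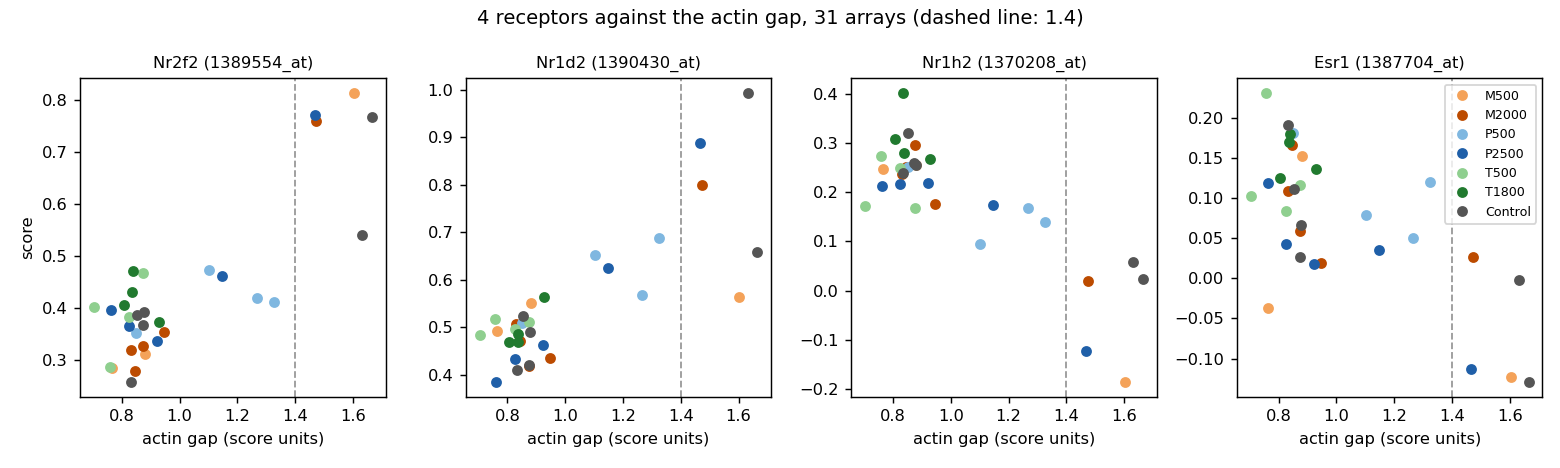
Score (vertical axis, score units) of Nr2f2, Nr1d2, Nr1h2 and Esr1 against the actin gap (horizontal axis, score units) on each of 31 arrays, coloured by group; the dashed line is the limit of 1.4. The 5 arrays right of it have the 5 highest Nr2f2 scores (0.539 to 0.813) and the 5 lowest Nr1h2 scores (-0.186 to 0.0587).

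The second question was whether the receptors differed after a triazole in the diet. No receptor probe set passed an adjusted p of 0.05 (limma, Benjamini-Hochberg over 31042 probe sets) in any of 13 comparisons: 6 exposed groups with Control, their mean with Control, 3 pairs of compounds at 500 ppm and 3 of high with mid dose. Over all probe sets, 2 (0.00644%) passed in T1800 against Control and 1 (0.00322%) in T1800 against T500, and 0 (0%) in the other 11. Counts at an unadjusted p under 0.05 are therefore given as a description, each beside the share of all probe sets. Groups that share no range with Control are counted likewise: 0 of 71 receptor probe sets in M2000, P500, T500 and T1800, where 0.155%, 0.677%, 1.22% and 1.94% of all probe sets did not overlap, and 0 for all 25 exposed arrays (0% of all). The 41 genes spanned differences of -0.106 to 0.122 with Control, and the median gene differed by 0.0125 in size in M2000 and by 0.0286 in M500. The median standard error of a receptor probe set ran from 0.0274 to 0.0321 over the 6 comparisons with Control, and the median half-width of a 95% interval from 0.0564 to 0.0658.

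**Figure D3:**
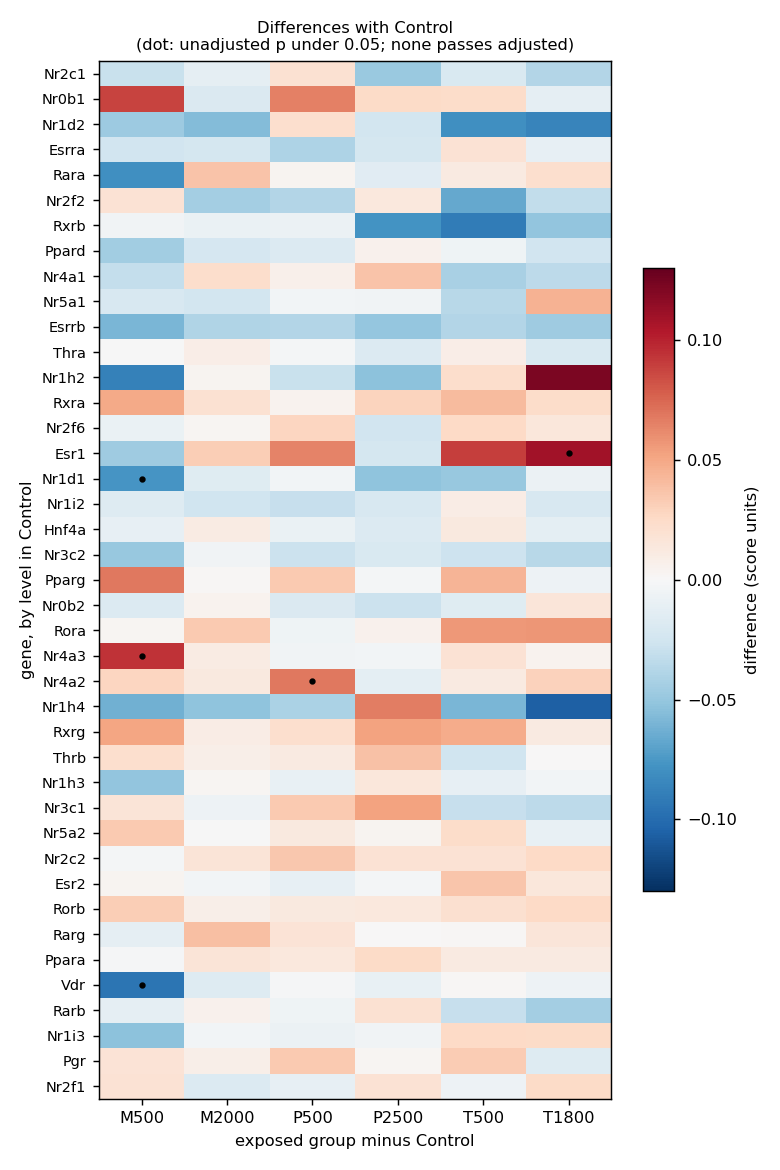
Difference with Control (colour, score units, red higher and blue lower in the exposed group) of the 41 receptors (rows, by level in Control) in the 6 exposed groups (columns); dots mark an unadjusted p under 0.05. The dots are at Vdr, Nr4a3 and Nr1d1 in M500, Nr4a2 in P500 and Esr1 in T1800, and no cell passes the adjusted threshold.

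Of the comparisons with Control, that of myclobutanil at 500 ppm held the largest number, 7 of 71 probe sets (9.86%) at an unadjusted p under 0.05, where 9% of all probe sets reached it. The Vdr probe set measured -0.371, -0.379 and -0.404 in the 3 M500 arrays, against -0.344, -0.29 and -0.245 (lowest, median and highest of 6) in Control. All 3 lay below every Control array, and below every array of the 5 other exposed groups, which ran from -0.357 to -0.237. How many of all probe sets set these 3 arrays apart from all others was not counted. Vdr had the smallest p of the 71 in this comparison, so its separation is no further evidence. The difference was -0.0947 (SE 0.025, 95% interval -0.146 to -0.0434, adjusted p = 0.201). Without the 5 arrays of high actin gap it was -0.0988 (adjusted p = 0.224), and in a fit that includes the actin gap -0.0964 (adjusted p = 0.0495), 1 of 71 receptor probe sets called where 0.744% of all were. Over the 16 alternatives tried it ran from -0.106 to -0.0588, with adjusted p of 0.0495 to 1. In M500, 2 of the 71 receptor probe sets (2.82%) did not overlap Control, where 2.01% of all probe sets did not. The share was thus near that of all probe sets, and Vdr lies at percentile 16.7 in Control, among dim probe sets.

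Nr4a3 (NOR1), an immediate-early orphan, measured -0.0599, -0.0641 and 0.0938 in M500, against -0.179, -0.0854 and -0.0455 in Control. One array, replicate 04, stood far above, and the other 2 overlapped the Control range. The difference of 0.0944 (SE 0.0314, adjusted p = 0.319) was 0.0119 (adjusted p = 0.947) without the arrays of high actin gap, of which replicate 04 is one. Another Nr4a3 probe set (1369067_at) differed by 0.0706 (adjusted p = 0.38), and by 0.0412 without those arrays. Nr1d1 (REV-ERB alpha), a repressor of the clock, measured -0.0473, -0.0187 and -0.0855 in M500, against -0.078, 0.0473 and 0.086 in Control, and differed by -0.077 (SE 0.0346, adjusted p = 0.504). The 3 arrays lay below 5 of the 6 Control arrays, and 2 of them lay above the lowest, Control replicate 02. The remaining M500 probe sets were dimmer ones of their genes. For Nr3c1, 1368222_at measured -0.452, -0.495 and -0.552 in M500, against -0.496, -0.425 and -0.379 in Control, a difference of -0.0717. For Ppard, 1387684_at read -0.213, -0.219 and -0.343 in M500, against -0.28, -0.157 and -0.085 in Control, a difference of -0.091 whose lowest array is again replicate 04. For Nr2c1, 1394657_at read -0.28, -0.255 and -0.244 in M500, against -0.372, -0.296 and -0.268 in Control, a difference of 0.0509 that was 0.0167 (adjusted p = 0.907) without the arrays of high actin gap. All 3 overlapped the Control range, with adjusted p of 0.332 to 0.528. Their genes' shown probe sets differed by 0.0165, -0.0453 and -0.0286, so Nr3c1 and Nr2c1 had opposite signs between probe sets. Of 6 markers of peritubular and smooth muscle cells, 3 were lower in M500 at an unadjusted p under 0.05. The mean score of this list was 0.479 to 0.543 in M500, against 0.567 to 0.646 in Control. Of 8 Sertoli cell markers, 2 were lower, with a mean score of 1.071 to 1.13 in M500, against 1.121 to 1.205 in Control. Over all probe sets, 4.15% were lower at that threshold. No marker of either list passed in limma, where the smallest adjusted p was 0.162 (peritubular) and 0.36 (Sertoli). The part of both marker lists in these differences was not tested.

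At 2000 ppm of myclobutanil, 0 of 71 probe sets reached an unadjusted p under 0.05, where 1.7% of all probe sets did. The 41 genes ranged from -0.0568 (Nr1d2) to 0.039 (Rarg). The Vdr scores were -0.319, -0.306, -0.274, -0.283 and -0.352, all above the 3 M500 arrays, and the high dose differed from the mid dose by 0.078 (SE 0.0258, adjusted p = 0.45). For Nr4a3 the high dose differed from the mid dose by -0.0842 (SE 0.0325, adjusted p = 0.53), with -0.124, -0.049, -0.0825, -0.0633 and -0.153 at 2000 ppm. Between these doses 4 of 71 probe sets (5.63%) reached an unadjusted p under 0.05, against 7.55% of all. Their groups did not overlap in 2 of 71 (2.82%), against 3.59% of all. The Nr4a3 difference between doses was -0.0176 without the arrays of high actin gap, and that of Vdr 0.0797. The other Nr4a3 probe set (1369067_at) scored -0.357, -0.356, -0.372, -0.391 and -0.408 in M2000, against -0.321, -0.369 and -0.244 in M500, a difference of -0.0653 (adjusted p = 0.58) that was -0.024 without those arrays. Ppard (1387684_at) scored -0.0421, -0.149, -0.175, -0.183 and -0.234 in M2000, against -0.213, -0.219 and -0.343 in M500, a difference of 0.101 (SE 0.0394, adjusted p = 0.534). Both overlapped between the doses. At 2000 ppm, 3 of the 8 Sertoli cell markers and 2 of the 6 peritubular markers were higher than at 500 ppm at an unadjusted p under 0.05. Over all probe sets, 7.55% reached that threshold in either direction. No marker passed in limma, where the smallest adjusted p was 0.55 (Sertoli) and 0.362 (peritubular). These counts rest on the same 3 M500 arrays as those against Control, and the part of the markers was not tested.

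**Figure D4:**
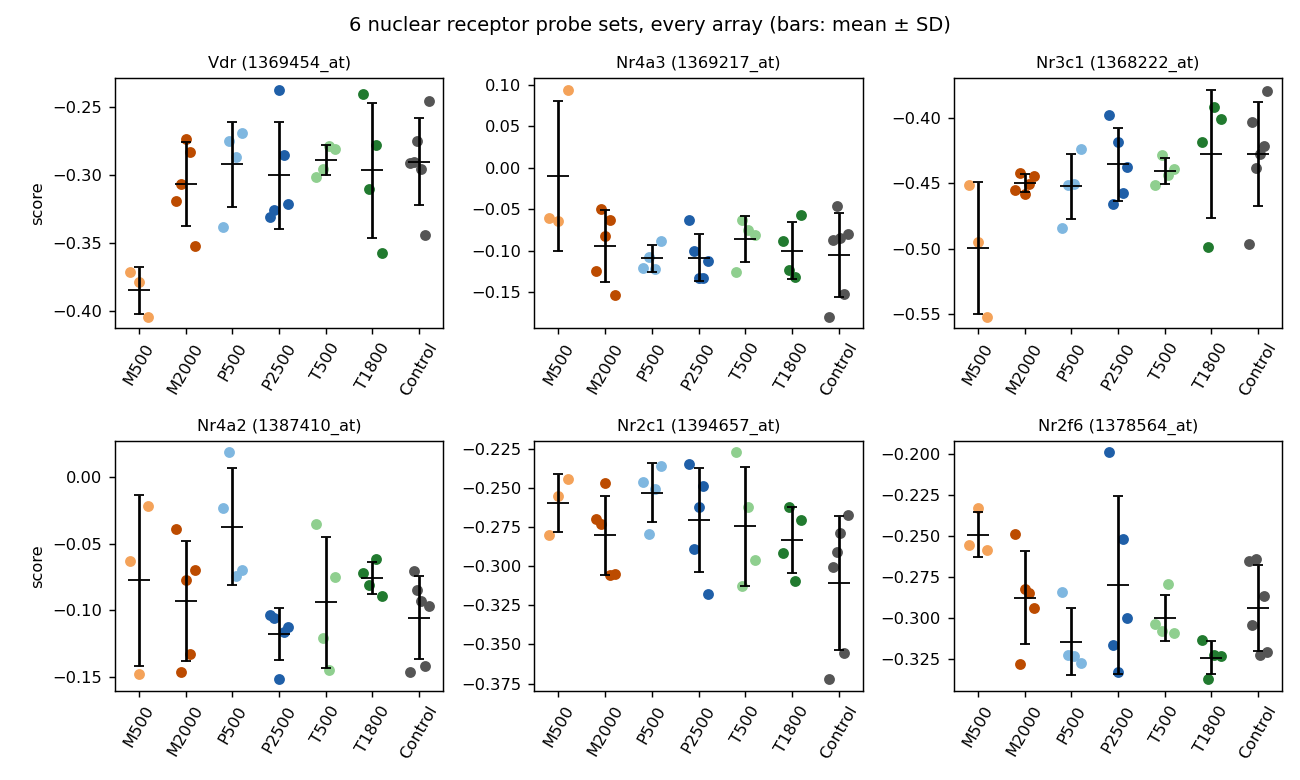
Score (vertical axis, score units) on every array (points) of Vdr, Nr4a3, Nr3c1 (1368222_at), Nr4a2 (1387410_at), Nr2c1 (1394657_at) and Nr2f6 (1378564_at), by group from M500 to Control on the horizontal axis, with mean and SD (bars). The 3 Vdr points of M500 (-0.404 to -0.371) lie below those of every other group. This probe set was the receptor one of smallest p in M500 against Control.

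After propiconazole at 500 ppm, 4 of 71 probe sets (5.63%) reached an unadjusted p under 0.05, against 3.36% of all. Nr4a2 (NURR1) scored -0.0233, 0.0182, -0.0744 and -0.0698 in P500, against -0.146, -0.0948 and -0.0707 in Control. All 4 arrays lay above the Control mean, and 1 of them, replicate 03, inside the Control range, for a difference of 0.0681 (SE 0.0258, adjusted p = 1). Its other probe set (1369007_at) read -0.14, -0.0518, -0.0888 and -0.166 in P500, against -0.172, -0.12 and -0.0244 in Control. Nr2c1 gave opposite signs from 2 dim probe sets, both with adjusted p = 1, while the bright one differed by 0.0202. Its 1394657_at scored -0.246, -0.28, -0.251 and -0.236 in P500, against -0.372, -0.296 and -0.268 in Control (0.0577). Its 1372416_at scored -0.489, -0.513, -0.498 and -0.499 in P500, against -0.504, -0.449 and -0.381 in Control (-0.0531). A dim Thrb probe set (1370474_at) scored -0.363, -0.352, -0.389 and -0.318 in P500, against -0.518, -0.411 and -0.333 in Control, and differed by 0.0575 (adjusted p = 1). All of these overlapped Control. Without the arrays of high actin gap, Nr2c1 (1394657_at) differed by 0.0312 and Thrb by 0.0316.

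Nr5a1 (SF-1) is named for P500 because leaving out arrays alters its call. Its dim probe set (1369859_at) scored -0.193, -0.21, -0.252 and -0.248 in P500, against -0.304, -0.144 and -0.0768 in Control, which gives -0.0547 (SE 0.0356, adjusted p = 1). The 2 lowest Control scores, -0.239 and -0.304, belong to replicates 02 and 06. Without the 5 arrays of high actin gap the difference was -0.105 (SE 0.0206, adjusted p = 0.0392), and 198 of all probe sets (0.638%) were then called. The bright Nr5a1 probe set scored 0.268, 0.216, 0.363 and 0.248 in P500, against 0.197, 0.294 and 0.338 in Control, and differed by -0.00395 (SE 0.0408). With all arrays, 0 of 12 SF-1 target genes measured passed in P500, and 0 reached an unadjusted p under 0.05, against 3.36% of all probe sets. That count is from the fit in which Nr5a1 was not called. The count without the 5 arrays is not given here, and the part of SF-1 in its targets was not tested.

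The comparison of propiconazole at 2500 ppm with Control carried the highest single difference among the receptors. Of 71 probe sets, 5 (7.04%) reached an unadjusted p under 0.05, against 4.15% of all. One of the 3 probe sets of Hnf4a (1392969_at), a master regulator of hepatocytes, measured -0.221, 0.11, 0.0231, -0.018 and -0.185 in P2500 replicates 01 to 05, against -0.241, -0.206 and -0.179 in Control. Replicates 02, 03 and 04 lay above all other 28 arrays, which ran from -0.265 to -0.129. The difference of 0.148 (SE 0.0379, 95% interval 0.0702 to 0.226, adjusted p = 0.114) was 0.00318 (SE 0.027, adjusted p = 1) without these 3 arrays. In a fit that weights the arrays by their quality it was 0.191 (adjusted p = 6.53e-06), 1 of 71 receptor probe sets called where 2.84% of all probe sets were. They are the arrays with Alb at 3.89 to 4.15, and the part of liver RNA in the difference was not tested beyond leaving them out.

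The other Hnf4a probe sets did not follow. 1369289_at scored -0.032, 0.00929 and 0.0278 in the 3 arrays, and -0.0962 to 0.0507 in the other 28. 1382496_at scored -0.213, -0.21 and -0.215, against -0.338 to -0.17. Hnf4a 1392969_at was the 1 of 71 receptor probe sets that separated the 3 arrays from the other 28, where 1.18% of all probe sets did. The liver receptors Nr1i3 (CAR), at -0.347 to -0.335 in the 3 arrays against -0.517 to -0.306, Nr1i2 (PXR), at -0.0138 to 0.0308 against -0.0933 to 0.0612, and Nr0b2 (SHP), at -0.111 to -0.0794 against -0.143 to 0.0112, stayed within the range of the other arrays. Nr1h4 (FXR) read 0.228 in replicate 04 and -0.0928 and -0.0809 in 02 and 03, against -0.226 to 0.138.

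**Figure D5:**
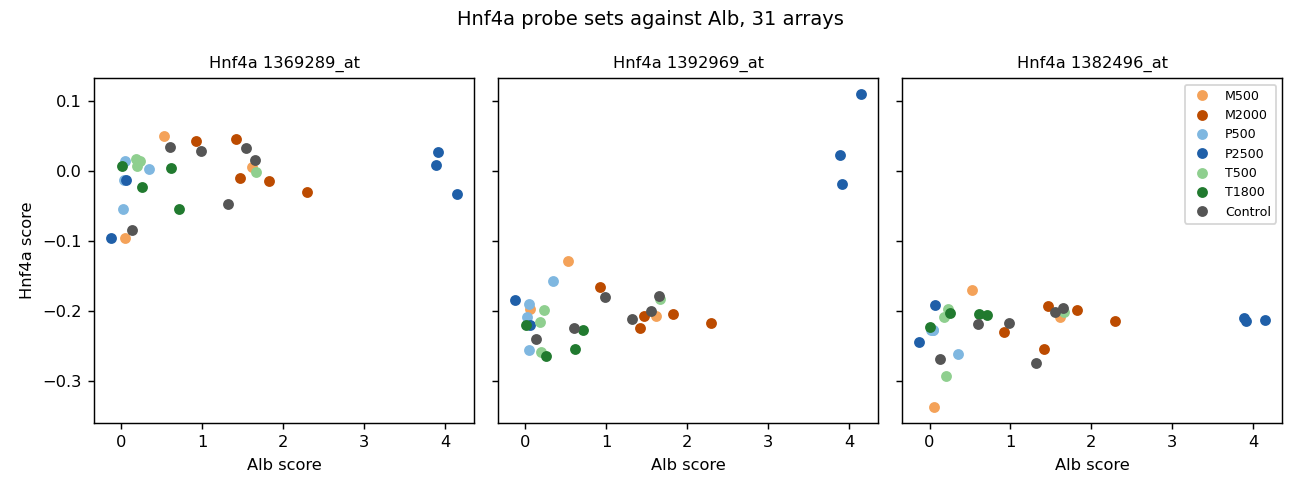
Score of each of the 3 Hnf4a probe sets (vertical axis, score units) against the score of Alb (horizontal axis, score units) on each of 31 arrays, coloured by group. In the middle panel 3 P2500 arrays with Alb at 3.89 to 4.15 lie at -0.018 to 0.11, above the other 28, and in the outer panels they lie among them.

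The other 4 P2500 probe sets were dimmer ones of their genes. Thrb (1387983_at) measured -0.384, -0.35, -0.343, -0.355 and -0.362 in P2500, against -0.337, -0.311 and -0.0188 in Control. The groups did not overlap, as in 1 of 71 receptor probe sets (1.41%) and 0.274% of all, but the difference of -0.0916 (SE 0.0386, adjusted p = 1) includes Control replicate 03 at -0.0188, far from the other 5 (-0.337 to -0.297), and was -0.0419 without it. Nr5a2 gave opposite signs from 2 probe sets. Its 1390965_at scored -0.279, -0.159, -0.211, -0.228 and -0.25 in P2500, against -0.345, -0.276 and -0.248 in Control (0.0604, adjusted p = 0.86, and 0.0214 without replicates 02, 03 and 04). Its 1387573_a_at scored -0.225, -0.377, -0.362, -0.343 and -0.43 in P2500, against -0.34, -0.268 and -0.202 in Control (-0.078, adjusted p = 1). Nr2c1 (1372416_at) differed by -0.0419 (adjusted p = 1). The high dose differed from P500 in 3 of 71 probe sets (4.23%) at an unadjusted p under 0.05, against 3.83% of all. Among these, Hnf4a (1392969_at) differed by 0.145 (SE 0.0419, adjusted p = 0.246), and by 0.000569 without replicates 02, 03 and 04. Nr4a2 scored -0.103, -0.106, -0.152, -0.116 and -0.112 in P2500, all below the 4 P500 arrays, a difference of -0.0805 (SE 0.0268, adjusted p = 0.537). It was the 1 of 71 (1.41%) without overlap between these doses, against 1.22% of all. Nr2f6 (1390066_at) scored 0.00405, 0.00546, 0.0206, 0.0189 and -0.0584 in P2500, against 0.0506, 0.0621, 0.0862 and 0.0181 in P500, and differed by -0.0561 (SE 0.0246, adjusted p = 1). Its groups overlapped.

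After triadimefon at 500 ppm, 2 of 71 probe sets (2.82%) reached an unadjusted p under 0.05, against 7.62% of all. Nr2f6 (EAR2, a COUP relative), by 1390066_at, scored 0.052, 0.104, 0.0823 and 0.104 in T500, against -0.0445, 0.0114 and 0.0825 in Control, and differed by 0.0697 (SE 0.0237, adjusted p = 0.564). In T1800 the same probe set gave 0.0434, 0.0691, 0.00902 and -0.03, so the high dose differed from the mid dose by -0.0627 (SE 0.0259, adjusted p = 1), and by -0.0238 with the animal number series as a block. Nr4a2 (1369007_at) scored -0.217, -0.196, -0.158 and -0.185 in T500, against -0.172, -0.12 and -0.0244 in Control, and differed by -0.0799 (SE 0.0293, adjusted p = 0.577), and -0.0498 without the arrays of high actin gap. Between the 2 doses, 2 of 71 probe sets (2.82%) reached an unadjusted p under 0.05, against 1.97% of all, and 4 (5.63%) did not overlap, against 4.46% of all. The other of the 2 was Nr5a2 (1390965_at), which scored -0.298, -0.312, -0.347 and -0.326 in T1800, all below the -0.287, -0.296, -0.197 and -0.268 of T500, a difference of -0.0589 (SE 0.0279, adjusted p = 1). Of 7 Leydig cell markers, 3 were higher in T500 than in Control at an unadjusted p under 0.05, which 7.62% of all probe sets reached in either direction. None passed in limma (smallest adjusted p = 0.55). The list scored 1.206 to 1.404 in T500, against 1.01 to 1.281 in Control. T500 did not stand alone: its group mean was 1.28, those of the other exposed groups 1.112 (P500) to 1.328 (P2500), and that of Control 1.094. The part of these markers in the differences was not tested.

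At 1800 ppm of triadimefon, 3 of 71 probe sets (4.23%) reached an unadjusted p under 0.05, against 5.84% of all. Esr1 scored 0.125, 0.136, 0.17 and 0.18 in T1800, against -0.13, 0.0462 and 0.191 in Control. All 4 arrays lay above 5 of the 6 Control arrays, and the difference was 0.109 (SE 0.0521, adjusted p = 0.767). It was 0.0541 (adjusted p = 0.928) without the arrays of high actin gap and 0.101 (adjusted p = 0.823) with the animal number series as a block. The Nr2f2 probe set 1395863_at differed by -0.1 (SE 0.0461, adjusted p = 0.767), with -0.196, -0.222, -0.244 and -0.243 in T1800, against -0.199, -0.183 and 0.0896 in Control, and by -0.0357 without the arrays of high gap. Thrb (1370474_at) differed by 0.0516 (adjusted p = 0.767), and by 0.0257 without them. All 3 differences were thus smaller once the 5 arrays, among them Control replicates 02 and 06, were left out. Of 9 macrophage markers, 4 were higher in T1800 at an unadjusted p under 0.05, as were 3.5% of all probe sets. None passed in limma (smallest adjusted p = 0.204). The list had a mean score of 0.377 to 0.454 in T1800, against 0.299 to 0.387 in Control. The part of these markers in the differences was not tested.

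The compounds were compared at their common dose of 500 ppm in 3 pairs. Myclobutanil and propiconazole differed in 5 of 71 receptor probe sets (7.04%) at an unadjusted p under 0.05, against 7.48% of all, myclobutanil and triadimefon in 9 (12.7% against 6.69%), and propiconazole and triadimefon in 2 (2.82% against 5.08%). The groups of these pairs did not overlap in 8, 8 and 2 receptor probe sets (11.3%, 11.3% and 2.82%), against 5.97%, 5.43% and 7.22% of all probe sets. Vdr, at -0.371, -0.379 and -0.404 in M500, lay below all 4 arrays of P500 (-0.338, -0.275, -0.287 and -0.269) and all 4 of T500 (-0.301, -0.295, -0.278 and -0.281). The differences were -0.0926 (SE 0.027, 95% interval -0.148 to -0.0373, adjusted p = 0.403) with P500 and -0.0959 (SE 0.027, 95% interval -0.151 to -0.0405, adjusted p = 0.688) with T500. They share the 3 M500 arrays.

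Nr2f6 (1378564_at) scored -0.256, -0.233 and -0.259 in M500, above the -0.327 to -0.284 of P500 (difference 0.0653, SE 0.0246, adjusted p = 0.536) and the -0.309 to -0.279 of T500 (0.051, SE 0.0246, adjusted p = 0.733). The 3 M500 arrays lay above both groups.

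The other probe sets between myclobutanil and propiconazole were 2 of Nr4a3 and 1 of Nr2c1. Nr4a3 scored -0.0599, -0.0641 and 0.0938 in M500, against -0.12, -0.107, -0.121 and -0.0877 in P500, a difference of 0.099 (SE 0.034, adjusted p = 0.503). The groups did not overlap, and without the arrays of high actin gap, of which the highest M500 array is one, the difference was 0.047. Its probe set 1369067_at scored -0.321, -0.369 and -0.244 in M500, against -0.351, -0.374, -0.433 and -0.369 in P500, and differed by 0.0702 (adjusted p = 0.565), or 0.0367 without those arrays. Nr2c1 (1372416_at) scored -0.426, -0.456 and -0.44 in M500, all above the -0.513 to -0.489 of P500 (difference 0.0591, SE 0.0248, adjusted p = 0.593). It was 0.0587 without the arrays of high actin gap.

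Between myclobutanil and triadimefon, Esr1 gave the widest gap of the shown receptors, -0.136 (SE 0.0617, 95% interval -0.263 to -0.00933, adjusted p = 0.733), with 0.152, -0.0365 and -0.123 in M500, against 0.116, 0.0842, 0.103 and 0.231 in T500. Its lowest M500 value is that of the array with a high actin gap, and without such arrays the difference was -0.0756. Ppard (1387684_at) scored -0.213, -0.219 and -0.343 in M500, all below the -0.187 to -0.113 of T500, a difference of -0.114 (SE 0.0412, adjusted p = 0.727) that was -0.0715 without those arrays. Nr1i3 (CAR) scored -0.402, -0.315 and -0.517 in M500, against -0.322, -0.321, -0.335 and -0.348 in T500. Its groups overlapped, and the difference of -0.0798 (SE 0.0337, adjusted p = 0.733) was -0.0268 without the arrays of high actin gap, the lowest M500 array among them. Nr4a2 (1369007_at) scored -0.141, -0.128 and -0.0595 in M500, above all of T500 (-0.217 to -0.158), for a difference of 0.0796 (SE 0.0346, adjusted p = 0.733). Nr3c1 (1368222_at) and both Nr4a3 probe sets differed by -0.0588, 0.0758 (1369217_at) and 0.0607 (1369067_at), each with adjusted p = 0.733, and by -0.0326, 0.0238 and 0.0272 without the arrays of high actin gap. Nr3c1 read -0.552 to -0.452 in M500, against -0.452 to -0.428 in T500, where the closest arrays of the 2 groups differ by less than the last digit shown. For Nr4a3 the groups overlapped, with 1369217_at at -0.125 to -0.0623 and 1369067_at at -0.43 to -0.347 in T500.

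Between propiconazole and triadimefon, an Nr2f2 probe set (1370063_at) scored 0.255, 0.217, 0.271 and 0.238 in P500, against 0.152, 0.184, 0.242 and 0.137 in T500, a difference of 0.0664 (SE 0.0251, adjusted p = 0.888) with T500 replicate 03 inside the P500 range. Nr4a2 (1369007_at) scored -0.14, -0.0518, -0.0888 and -0.166 in P500, against -0.217, -0.196, -0.158 and -0.185 in T500, a difference of 0.0775 (SE 0.0321, adjusted p = 0.888), with overlap at 1 array of each group. Myclobutanil carries a nitrile group, propiconazole a dioxolane ring and triadimefon a ketone beside the triazole ring they share, and no receptor passed between any pair of them.

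Averaged over the 6 exposed groups, 2 of 71 probe sets (2.82%) reached an unadjusted p under 0.05, against 5.56% of all. They were Nr2c1 (1394657_at) at 0.0405 (SE 0.0153, adjusted p = 0.818) and Thrb (1387983_at) at -0.0674 (SE 0.029, adjusted p = 0.882). That Nr2c1 probe set was higher than the Control mean in 23 of 25 exposed arrays. It had the smallest p of the 71 in this comparison, so this count is no further evidence. Its Control mean of -0.311 includes replicates 02 and 06, which averaged -0.364, against -0.284 in the other 4. Nr2c1 differed by 0.0158 without the arrays of high actin gap, and Thrb by -0.0178 without Control replicate 03. The shown Nr2c1 probe set differed by -0.0479 to 0.0202 over the 6 groups.

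The genes on which the receptors act were described by the lists of their known targets and partners. With all arrays, no list had a gene past the adjusted threshold in any of the 6 groups. Not every list is described in full. At an unadjusted p under 0.05 in M500 (9% of all probe sets), 2 of 16 clock genes were higher and 1 lower. Of 10 thyroid hormone and vitamin D targets 0 were. In P2500, 2 of 13 LXR and FXR targets and 2 of 11 glucocorticoid receptor targets were higher (2.41% of all probe sets). Of 15 coregulators, 2 were lower in M500 at an unadjusted p under 0.05 (4.15% of all probe sets), with a list median of -0.0392 against 0.00014 over all probe sets. They were the corepressor Ncor1, at 0.822 ± 0.0944 in M500 (SD, n = 3) and 0.946 ± 0.0825 in Control (SD, n = 6; difference -0.124, adjusted p = 0.241), and the coactivating methyltransferase Carm1 (-0.105, adjusted p = 0.527). Without the arrays of high actin gap 1 of the 15 was lower in M500 (5.05% of all probe sets). The low list median was not particular to M500. With all arrays it was -0.057 in T1800, -0.0364 in T500, -0.0237 in M2000, -0.00806 in P2500 and 0.00175 in P500. Over all probe sets the medians of these groups ran from -0.00358 to 0.000708, and all 6 groups share the Control arrays. Of 19 PPAR targets, 3 were higher and 1 lower in T1800 (3.5% and 2.35% of all probe sets; list median 0.00781 against -0.00289). Acadl, an acyl-CoA dehydrogenase, scored 1.22 ± 0.119 in T1800 (SD, n = 4) and 0.91 ± 0.177 in Control (difference 0.312, adjusted p = 0.221), and Ppara, Ppard and Pparg themselves differed by 0.012, -0.0251 and -0.00707 there. Of 12 retinoid genes, 1 was higher and 1 lower in each triadimefon group at that threshold. In either direction, 7.62% of all probe sets reached it in T500 and 5.84% in T1800, so counts this small are a description only. Cyp26b1, which breaks down retinoic acid, was lower at an unadjusted p under 0.05 in T500 (-0.252, adjusted p = 0.655, 3.58% of all probe sets) and in T1800 (-0.297, adjusted p = 0.767). Those higher were Aldh1a3, which makes retinoic acid, in T500 (0.148, adjusted p = 0.655) and Rarres2, a retinoid-responsive gene that encodes chemerin, in T1800 (0.214, adjusted p = 0.767). Without the arrays of high actin gap, 1 was higher and 0 lower in T500, and 0 higher and 1 lower in T1800. The shares of all probe sets in that fit are not given here, so these counts cannot be judged as many or few.

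The P2500 group includes the arrays with liver transcripts. Of 12 CAR and PXR targets, 7 were higher at an unadjusted p under 0.05 (2.41% of all probe sets), with a list median of 0.148 against -0.00358 over all probe sets. Cyp3a23-3a1, the classical PXR-induced oxidase of rat liver, averaged 0.58 ± 0.935 in P2500 (SD, n = 5) and -0.37 ± 0.0805 in Control (difference 0.95, adjusted p = 0.0919). Of the liver markers, 15 of 16 were higher in the same comparison. The Leydig cell markers, several of which are also SF-1 targets, had a mean score of 1.17 to 1.44 in P2500, against 1.01 to 1.28 in Control, and the part of both marker lists in these counts was not tested. Of 19 PPAR targets 5, of 12 SF-1 targets 4 and of 12 retinoid genes 2 were also higher, led by Fabp1 (0.705), Cyp17a1 (0.493) and the plasma retinol carrier Rbp4 (0.722). Without replicates 02, 03 and 04, 0 genes of each of these 4 lists were higher at an unadjusted p under 0.05 (1.81% of all probe sets), 1 SF-1 target and 1 retinoid gene were lower, 0 passed the adjusted threshold in limma, and 0 of 16 liver markers were higher. Without the arrays of high actin gap, 9 CAR and PXR targets, 6 PPAR targets, 4 SF-1 targets and 3 retinoid genes were higher (4.42% of all probe sets), of which 7, 1, 1 and 1 passed (0.992% of all probe sets), as did 14 of the 16 liver markers. With all arrays, the shown probe sets of Nr1i3, Nr1i2 and Nr5a1 differed from Control by -0.00427, -0.0211 and -0.00503 in P2500. The median standard error of a receptor probe set was 0.0274 in this comparison. Nr1i3 lies at percentile 10.4 in Control, where a small difference shows little. Without replicates 02, 03 and 04, the 2 Nr5a1 probe sets differed by 0.0162 (SE 0.0542) and, for 1369859_at, -0.0919 (SE 0.0434). The PPAR and retinoid receptors were not set beside their lists here. The part of the receptors in these counts was not tested.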

How the data were processed

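The deposited values are a series matrix of 31 arrays (Affymetrix rat array, 31099 probe sets); 3 labelled arrays hold no values and were not analysed here. They were treated as scores: the table deposited by the authors is centred near 0 on each array, and its summary method, background correction, normalization and log base are not given in the sources used here. Because arrays differed in gain, the scores were quantile normalized in R 4.3.3 with limma 3.58.1. The 57 control probe sets were left out. Gene names came from GEO's platform annotation: 20826 probe sets had 1 symbol, 436 several and 9780 none. One limma model of 7 group means, with no covariate, gave 13 comparisons, adjusted by Benjamini-Hochberg over 31042 probe sets at 0.05; the number of arrays limits the precision. The fit was tested on simulated data. The receptors, the gene lists and the alternatives were chosen with earlier results of these data known. Receptor probe sets are named in a comparison where the adjusted p, or failing that the unadjusted p, is under 0.05, and Nr5a1 in P500 was chosen after its values were seen. Promoters came from RefSeq (GRCr8), matched by symbol.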

Additional observations from a re-analysis of the deposited data

Results flagged for a closer look

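Single values that stood far from the rest of their group were looked for in 26 receptor probe sets. There were 156 checks, each of 1 probe set in 1 group of 4 to 6 arrays, by the gap to the nearest array as a share of the group's range. They flagged 15 values, several of them on the same array. The limit is one that about 1 in 20 independent checks would pass. The 15 cannot be set against that rate, because the checks share arrays. The 26 were also chosen from these data, by an unadjusted p under 0.05 in a comparison with Control or a high rank in Control. Of the 15 values, 7 lie on M2000 replicate 05 or P2500 replicate 05, with an actin gap of 1.47, for Nr2f2, Nr0b1, Nr1d2 or Esrra. Nr2f2 read 0.759 in M2000 replicate 05, with the next array at 0.353, and 0.77 in P2500 replicate 05, with the next at 0.461. Its probe set 1395863_at read -0.0469 in P2500 replicate 05, with the next at -0.185. Nr0b1 read 0.799 in M2000 replicate 05 (next 0.634) and 0.88 in P2500 replicate 05 (next 0.668). Nr1d2 read 0.799 in M2000 replicate 05 (next 0.507), and Esrra 0.395 there (next 0.543).

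An eighth value on these arrays was that of Nr2f6 (1390066_at), at -0.0584 in P2500 replicate 05, with the next at 0.00405. On arrays of lower actin gap, Nr1d2 read 0.564 in T1800 replicate 03 (next 0.485), Esrra 0.423 in P500 replicate 04 (next 0.539), Ppard 0.297 in T500 replicate 04 (next 0.401) and Nr4a2 (1387410_at) -0.152 in P2500 replicate 03 (next -0.116). The Thrb probe set 1387983_at stood apart in M2000 replicate 01 at -0.259 (next -0.32) and in Control replicate 03 at -0.0188 (next -0.297). Rxrb read 0.642 in Control replicate 02 (next 0.427), an array with an actin gap of 1.67.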

How the results depend on the processing

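The reported count of called receptor probe sets was 0 in every comparison. Of 251 recomputed counts 241 were again 0 and 10 moved. Of 826 recomputed values of the 48 named differences 813 kept their sign and stayed uncalled, 9 passed the threshold and 4 changed sign. The 813 put no limit on size. They include Hnf4a in P2500 against Control, 0.148 and 0.00318 without replicates 02, 03 and 04. Nr4a3 in M500, 0.0944 and 0.0119 without the arrays of high actin gap, is also among them. With array weights, 1 probe set was called in P2500 against Control (Hnf4a, adjusted p = 6.53e-06; 2.84% of all probe sets were called) and 2 in P2500 against P500 (Hnf4a and Nr4a2; 2.75% of all). With the actin gap as a covariate, 1 was called in M500 against Control (Vdr; 0.744% of all). Without the 5 arrays of actin gap above 1.4, 1 was called in P500 against Control (Nr5a1; 0.638% of all) and 1 in P2500 against P500 (Hnf4a, adjusted p = 0.0304; 1.37% of all). Leaving out 1 array at a time gave 0 to 1 in P2500 against Control and 0 to 1 in P2500 against P500, the 1 being Hnf4a without P2500 replicate 01 (0.189 and 0.186) or 05 (0.18 and 0.177), neither of which is rich in liver transcripts, with 0.744% to 0.912% of all called.

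Of the alternatives chosen after seeing the data, those on the gene lists are given beside their counts. Another left out both the 5 arrays and P2500 replicates 02, 03 and 04, so that 1 P2500 array remained, assumed to vary like the other groups. It called 5 in P2500 against P500 (Esrra, Nr1d2, Rora, Nr2c1 and Nr2f6; 7.04% of 71, against 8.29% of all) and turned the sign of Hnf4a (-0.025 against Control, -0.0172 against P500) and of Nr5a2 (-0.0133 for 1390965_at, 0.0453 for 1387573_a_at). The cause was not tested. Taking the probe set of smallest mean put 9 genes above the middle in Control. With the replicate number as a block, 0 receptor probe sets were called by limma in each of the 13 comparisons. At an unadjusted p under 0.05 there were 2 to 12 of the 71. The share of all probe sets in that fit is not given here, so these counts cannot be judged as many or few. The numbers did not pair the arrays: 30 of 73 same-numbered pairs correlated above 0.1 (median 0.0388, against 0.0372 for 336 other pairs), and 7 of 31 arrays correlated best with their own number. The deposited scores, only the groups compared, trend and robust settings, probe sets above the median and the animal series block moved no count. Most receptors lie near the middle of the arrays or below it, where dim signal limits what a difference can show.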
